A study of Mus musculus with 6 samples.

Results

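The collagen genes are the 44 genes, of 31053 listed in the count tables, whose symbol is Col, a number, a and a number, such as Col1a1 or Col6a2. The rule used symbols alone and no measured value, but the group was chosen with earlier results of these data known. All 44 were found as protein-coding genes in the GENCODE vM21 annotation of GRCm38. They were sorted by the kind of collagen they encode. There were 11 fibrillar genes, 6 type IV genes of the basement membrane network, 6 type VI genes of the beaded filament and 3 genes of the hexagonal network (types VIII and X). The rest were 9 FACIT genes, whose products sit on the surface of other fibrils, 4 transmembrane collagens, 2 multiplexins and 3 others (Col7a1, Col26a1 and Col28a1).

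Their transcripts were counted in single cells of the mouse fetal ovary and of a culture of stem-cell-derived ovarian somatic cells. Induced D6 is 1 library of gonad somatic cells differentiated from embryonic stem cells (129svj x C57BL/6J) for 6 days as aggregates. CHIR, BMP4 and EGF were given for the first 2 days. BMP4, SHH, EGF, PD0325901 and retinoic acid followed for 2 days, then BMP4 and FGF9 for 2 days. The embryo libraries hold XX gonads of ICR mice, 1 library for each embryonic day from E10.5 to E14.5. Strain, culture and library all differ between Induced D6 and the embryos and cannot be told apart. With 1 library per group no difference has a replicate check, and no test was made.

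Collagens are triple helices of 3 chains, hydroxylated and folded in the cell, then trimmed and cross-linked outside it. Fibrillar collagens give connective tissue its strength, type IV forms the sheet of basement membranes under epithelia and around vessels, and type VI forms fine filaments around cells. In the fetal ovary, cords of supporting cells and germ cells are bounded by basement membrane, with stroma between the cords.

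After filtering, 7067 Induced D6 cells and 2661 to 5946 cells per embryo library remained. The kept cells held 46008947 UMIs in Induced D6 and 34979565 to 48759756 in the embryo libraries. Their median depth was 6184 UMIs in Induced D6 and 6414 to 11843 UMIs in the embryo libraries. Clusters were built without the collagen genes and named from marker genes, hence names ending in "-like". The gonadal-epithelium-like class joins clusters that resembled the supporting lineage with those that resembled the coelomic epithelium. It held 3258 cells in Induced D6, against 469, 1415, 1817, 2081 and 1788 cells in the embryo libraries, here and below in stage order from E10.5. Its makeup differed: coelomic-epithelium-like cells were 1930 of these in Induced D6, against 469, 639, 670, 498 and 609 in the embryo libraries, and so the whole class at E10.5. Class levels therefore mix the 2 kinds in different shares. The stroma-like class held 1424 cells in Induced D6, against 542, 295, 375, 744 and 1039 cells in the embryo libraries. The germ-cell-like class joins clusters named germ cell with those named pluripotent stem cell. At E10.5 and E11.5 it holds only clusters of the latter name. In Induced D6, 33.5% of cells stayed unnamed, against 8.98%, 17.0%, 9.67%, 1.30% and 1.03% in the embryo libraries. Unnamed clusters of 191 and 186 cells at E11.5 and of 193 cells at E12.5 had stroma as their best marker set. The stroma-like class of these libraries leaves them out. No cluster of Induced D6 was named endothelium, erythroid, germ cell or pluripotent stem cell. A cluster of 19 cells there was named megakaryocyte on 10 of 10 markers, and it also held 13 of 14 endothelium markers. Levels are UMIs per 1000000 UMIs counted (CPM) in a whole library or in the summed cells of a class. Each UMI marks one 3′ end, so levels are not scaled by length, and capture may differ between genes. Intervals are 95% and cover counting error only. Erythroid-like cells, which should make no collagen, were used as a guide to the level of free RNA. Free RNA and doublets left in that class cannot be told apart. Over all collagens they held 51.3, 46.4, 3.19, 106 and 216 CPM, so this background was highest at E14.5, where it rests on 35 cells. The E13.5 and E14.5 libraries shared 114 cell barcodes, 2.44% of the smaller library, against 17 to 72 for other pairs. Leaving those barcodes out of E14.5 changed none of the counts of collagens that differed between E14.5 and E11.5.

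Promoter windows are shown for a fibrillar, a type VI and a cartilage-type gene that had contrasting courses across the libraries. Each is the 250 bases before the RefSeq start site (GRCm38.p6) and holds no annotated exon. Entries were found for 35 of the 44 genes. Capitals mark a TATA box, searched as TATAAA on either strand along with the CCAAT box and the GC box (GGGCGG).
Col3a1, chr1:45311288-45311537, plus strand: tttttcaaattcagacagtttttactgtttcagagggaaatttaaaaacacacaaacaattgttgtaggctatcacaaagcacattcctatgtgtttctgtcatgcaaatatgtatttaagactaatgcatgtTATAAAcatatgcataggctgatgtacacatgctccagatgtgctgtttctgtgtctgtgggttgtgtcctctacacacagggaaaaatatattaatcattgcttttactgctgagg
Col6a3, chr1:90843972-90844221, minus strand: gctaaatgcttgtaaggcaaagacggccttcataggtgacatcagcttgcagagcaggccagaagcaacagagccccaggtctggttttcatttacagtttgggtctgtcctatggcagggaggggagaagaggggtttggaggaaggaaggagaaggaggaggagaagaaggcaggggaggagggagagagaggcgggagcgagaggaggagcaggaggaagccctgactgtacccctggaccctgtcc
Col9a1, chr1:24177360-24177609, plus strand: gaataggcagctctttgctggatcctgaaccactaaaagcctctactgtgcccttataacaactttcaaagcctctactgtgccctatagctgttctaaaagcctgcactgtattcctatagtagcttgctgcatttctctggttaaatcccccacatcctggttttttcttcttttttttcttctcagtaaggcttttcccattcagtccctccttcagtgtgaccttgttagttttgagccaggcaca
The Col3a1 window holds 1 TATA box, and the windows of Col6a3 and Col9a1 hold none of these motifs. Over all genes of the group, a GC box stood in 60.00% of the 35 collagen windows and in 32.9% of the 27025 windows of all genes. Of the collagen windows, 16 overlap an annotated exon. A CCAAT box stood in 34.3% of collagen windows and 34.5% of all windows, and a TATA box in 14.3% and 12.97%. Such matches describe letters only. Some collagens are neighbours in the genome. Col4a1 and Col4a2 lie head to head on chromosome 8, with start sites 21 bases apart, and the annotated genes overlap at these starts. Col6a1 and Col6a2 lie on the same strand of chromosome 10 with 85161 bases between them.

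Collagen transcripts together made up 1196 CPM in Induced D6, against 556, 517, 439, 549 and 975 CPM in the embryo libraries. Col3a1 and Col1a2 were the highest collagens in each of the 6 libraries. Of the 44 genes, 23 reached 10 CPM in at least 1 whole library and 31 in at least 1 library or cell class. At E14.5, 11 of 21 collagens with 10 CPM or more in either library were at least 2-fold higher than at E10.5, and 6 were at least 2-fold lower. Over all 9136 genes so tested the shares were 22.3% and 17.0%. In such whole-library sums, more cells of a type cannot be told apart from more RNA per cell, and many E10.5 clusters were named for tissue around the gonad, such as sclerotome and limb mesoderm. In Induced D6, 9 of 17 collagens were at least 2-fold higher than at E12.5 and 2 were lower, against 15.9% and 6.89% of 8767 genes. The median log2 ratio was 1.26 for the collagens and 0.27 over all genes.

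**Figure D1:**
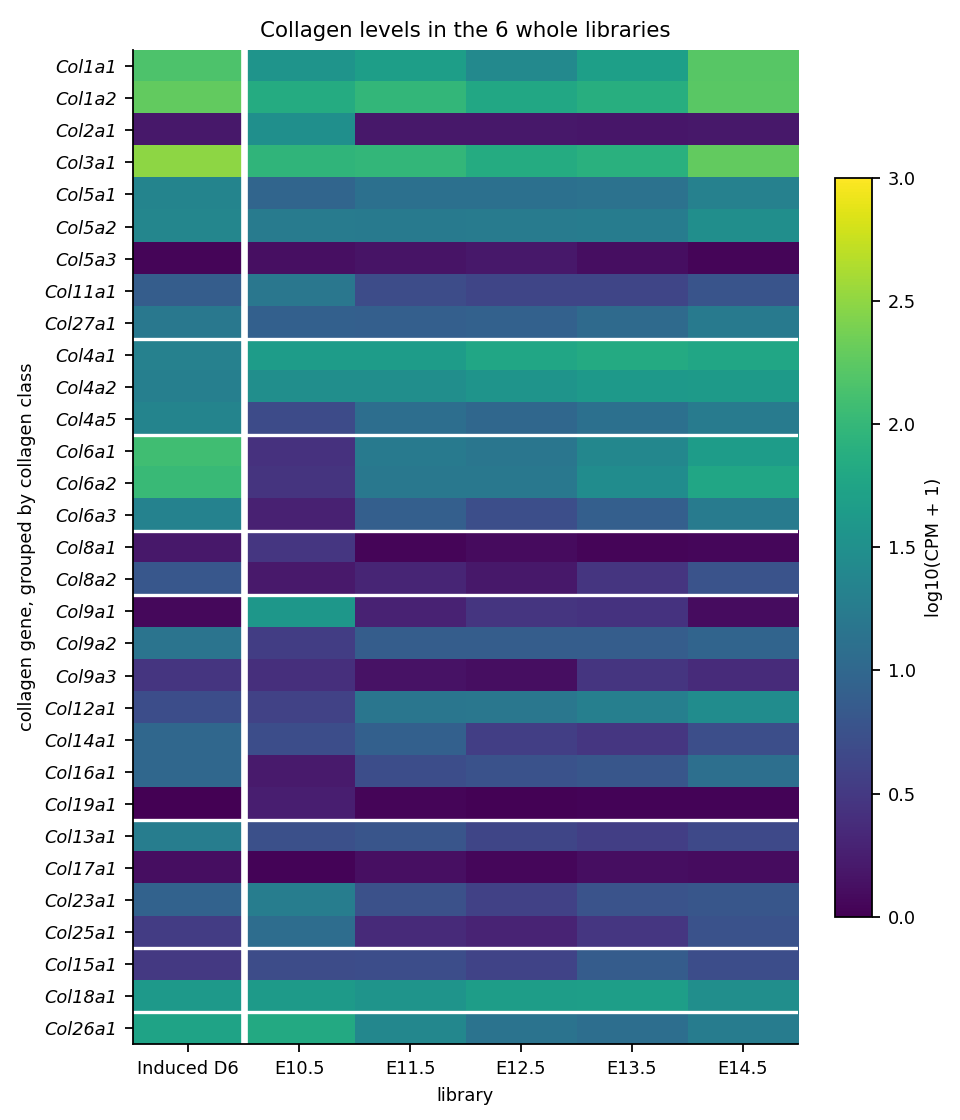
Level of the 31 collagen genes that reached 10 CPM in a library or class, in each of the 6 whole libraries (columns, with Induced D6 at the left). Color is log10(CPM + 1). Col6a1 is 118 CPM in Induced D6 and 1.69 CPM at E10.5, and Col2a1 and Col9a1 are bright at E10.5 alone.

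Type I collagen, the main fibril of connective tissue, is a trimer of Col1a1 and Col1a2 chains. Col1a1 (ENSMUSG00000001506, chr11:94936224-94953042, plus strand) was 143 CPM in Induced D6, against 34.8, 46.7, 25.1, 48.5 and 166 CPM in the embryo libraries. In stroma-like cells Col1a1 was 563 CPM in Induced D6, against 47.5, 171, 147, 318 and 634 CPM in the embryo libraries. In gonadal-epithelium-like cells it was 33.03 CPM in Induced D6, against 59.5, 27.2, 17.7, 27.4 and 86.6 CPM in the embryo libraries. The stroma-like class was thus the higher one in each library except E10.5. Within the epithelium at E14.5, coelomic-epithelium-like cells held 176 CPM of Col1a1 and supporting-lineage-like cells 7.84 CPM, which is below the 17.3 CPM of erythroid-like cells. A coelomic-epithelium-like cluster of 140 cells at E14.5 held 597 CPM, and the other, of 469 cells, 99.9 CPM.

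The share of cells with a Col1a1 UMI was compared after thinning each cell to 3000 UMIs. It was 71.2% of stroma-like cells in Induced D6, against 13.8%, 37.1%, 29.6%, 55.1% and 73.5% in the embryo libraries. Without thinning the shares were 83.9% in Induced D6 and 24.2% to 87.6% in the embryo libraries. Among gonadal-epithelium-like cells the thinned share was 7.83% in Induced D6, against 15.1%, 6.50%, 4.26%, 5.08% and 12.2%. In erythroid-like cells it was 0%, 1.30%, 0%, 4.17% and 0% in the embryo libraries. A count of 0 allowed a share of up to 2.63% at E10.5, 13.6% at E12.5 and 8.82% at E14.5, and the upper interval bounds were 7.02% at E11.5 and 21.1% at E13.5. Thinning left out 62 stroma-like cells of Induced D6 and 4 to 75 per embryo library. Median depths were 9472 to 14661 UMIs in erythroid-like and 5191.5 to 11589 UMIs in stroma-like cells. The stroma-like shares thus lay above these erythroid-like limits in each embryo library. The gonadal-epithelium-like shares of E11.5, E12.5 and E13.5 lay within them, but the levels in CPM divided the class. Coelomic-epithelium-like cells of these libraries held 52.1, 38.4 and 80.4 CPM of Col1a1. Erythroid-like cells held at most 14.2, 9.56 and 44.5 CPM by the same limits. Supporting-lineage-like cells, at 5.72, 2.41 and 8.55 CPM, were below those limits.

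Col1a2 in stroma-like cells was 620.4 CPM in Induced D6, against 122, 375, 376, 480.3 and 660.04 CPM in the embryo libraries. In gonadal-epithelium-like cells Col1a2 was 96.1 CPM in Induced D6, against 58.3, 45.9, 37.9, 43.5 and 82.03 CPM in the embryo libraries. The 2 chains were furthest apart at E10.5 in neural-crest- and sympathoblast-like cells, which held 274 CPM of Col1a2 and 3.40 CPM of Col1a1. Other E10.5 classes had ratios of Col1a1 to Col1a2 between 0.217 in skeletal-muscle-like and 1.40 in smooth-muscle- and pericyte-like cells, among the classes with UMIs of both and at least 20 of the pair.

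Col3a1 (ENSMUSG00000026043, chr1:45311538-45349706, plus strand) encodes a homotrimer that is built into soft-tissue fibrils together with type I. It was 311 CPM in Induced D6, against 91.7, 95.4, 68.8, 79.2 and 189.7 CPM in the embryo libraries. Stroma-like cells held 708 CPM in Induced D6, against 140.5, 277, 243, 279 and 545 CPM in the embryo libraries. Gonadal-epithelium-like cells held 231 CPM in Induced D6, against 74.6, 75.6, 73.7, 103 and 171 CPM in the embryo libraries. Both classes were highest in Induced D6 and next highest at E14.5. Col3a1 was also found in the supporting lineage, with 116 CPM in Induced D6, against 45.1, 38.6, 79.2 and 94.2 CPM in the libraries of E11.5 and later. A supporting-lineage-like cluster of 263 cells at E14.5 held 284 CPM of Col3a1, and the other 4 held 49.03 to 75.5 CPM.

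The minor fibrillar chains were lower. Col5a1, whose product regulates fibril diameter, was 21.5 CPM in Induced D6 and 8.50 to 19.9 CPM in the embryo libraries. Its partner Col5a2 was 22.9 CPM in Induced D6 and 16.01 to 29.7 CPM in the embryo libraries. Col27a1, a cartilage-associated fibrillar chain, was 14.97 CPM in Induced D6 and 7.17 to 16.4 CPM in the embryo libraries. Col11a1, a chain of cartilage fibrils, was 6.61 CPM in Induced D6, against 14.496, 3.95, 3.20, 3.26 and 4.95 CPM in the embryo libraries. Col5a3 was 21.6 CPM in the smooth-muscle- and pericyte-like cells of E10.5, from 8 UMIs in 52 cells.

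Col2a1, the main cartilage fibril chain, and Col9a1, whose product coats that fibril, were genes of the E10.5 library. Col2a1 was 0.543 CPM in Induced D6, against 30.6, 0.557, 0.572, 0.533 and 0.543 CPM in the embryo libraries. Col9a1 was 0.174 CPM in Induced D6, against 37.4, 0.937, 1.90, 1.74 and 0.257 CPM in the embryo libraries. Both were high at E10.5 and at 1.90 CPM or less in every other library. At E10.5 sclerotome-like cells, the precursors of vertebrae, held 113 CPM of Col2a1 and 125 CPM of Col9a1. Stroma-like cells of E10.5 held 105 CPM of Col9a1, and surface-ectoderm-like cells 65.7 CPM of Col2a1. After E10.5, Col9a1 was 4.87, 7.04, 4.005 and 0.361 CPM in germ-cell-like cells and at most 0.761 CPM in stroma-like cells.

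**Figure D2:**
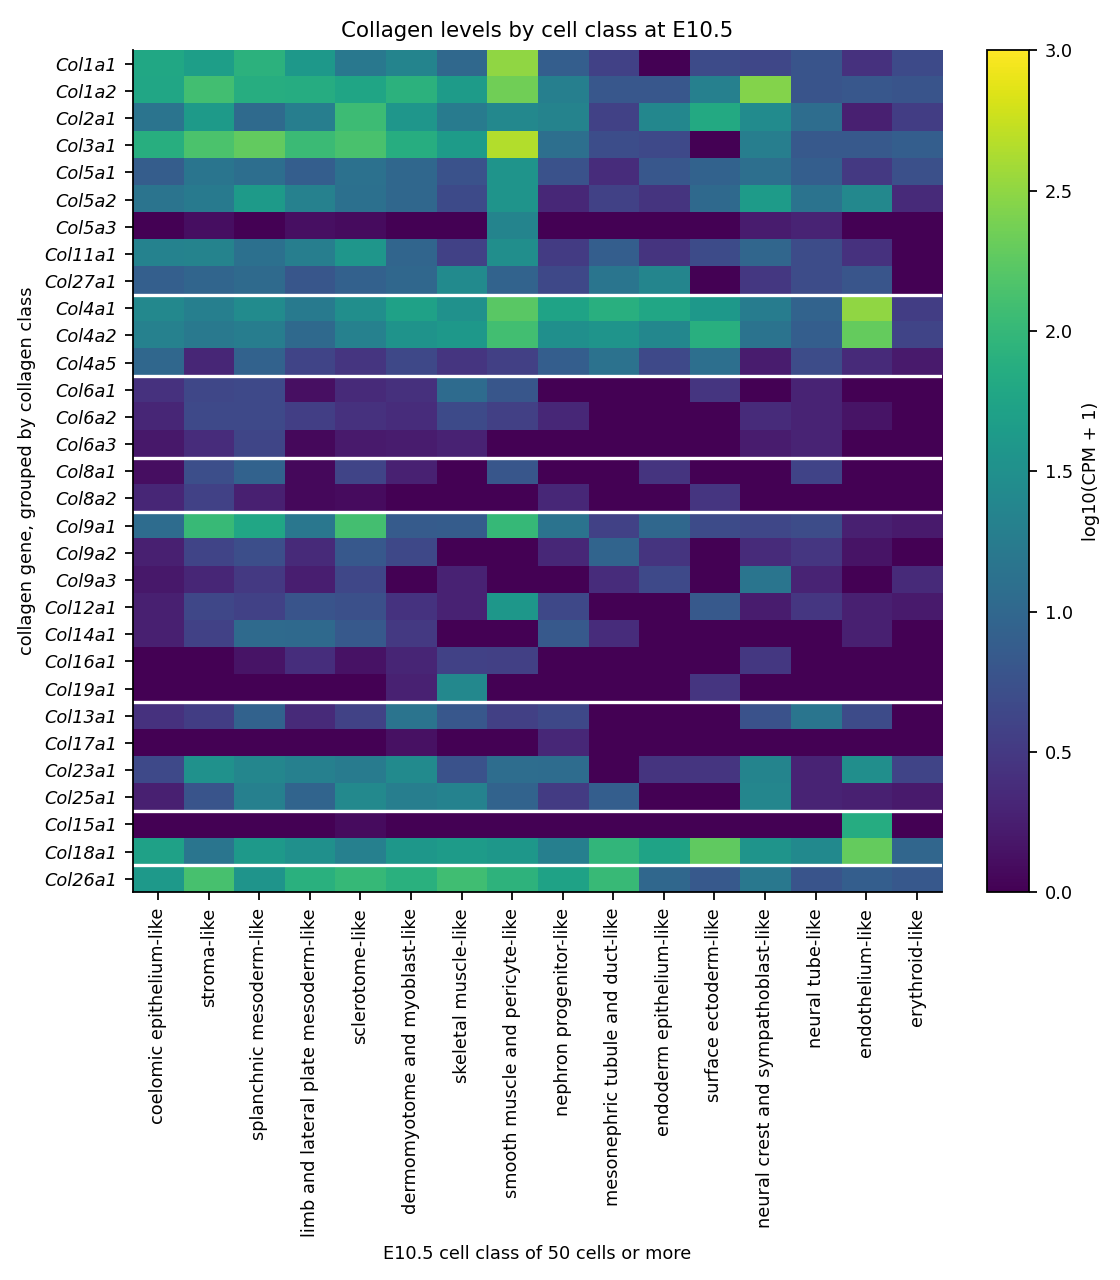
Level of 31 collagen genes in the cell classes of E10.5 (columns). Color is log10(CPM + 1). Smooth-muscle- and pericyte-like cells held 313 CPM of Col1a1 and 453 CPM of Col3a1, endothelium-like cells 320.3 CPM of Col4a1, and skeletal-muscle-like cells 24.3 CPM of Col19a1.

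The main type IV chains, Col4a1 and Col4a2, were at high levels in vessels. Col4a1 (ENSMUSG00000031502, chr8:11198423-11312826, minus strand) pairs with Col4a2 in the common basement membrane trimer. It was 19.6 CPM in Induced D6, against 44.00, 44.96, 58.4, 67.1 and 59.1 CPM in the embryo libraries. Endothelium-like cells held 320.3, 595, 716, 593 and 447 CPM of Col4a1 in the embryo libraries and 197, 356, 409, 332 and 285 CPM of Col4a2. The level in endothelium-like cells was highest at E12.5. In Induced D6 the megakaryocyte-like cluster, which also held endothelium markers, had 32 Col4a1 UMIs among its 201249 UMIs, from 19 cells. Of Col4a1, gonadal-epithelium-like cells held 19.7 CPM in Induced D6, against 23.8, 26.6, 36.3, 57.1 and 59.3 CPM in the embryo libraries. Stroma-like cells held 24.4 CPM in Induced D6, against 18.8, 57.6, 89.2, 102 and 63.7 CPM in the embryo libraries. In both classes Induced D6 was closer to E10.5 than to the later stages. A stroma-like cluster of 33 cells at E14.5, whose leading genes include the pericyte genes Pdgfrb, Heyl and Ndufa4l2 and which also held 5 of 12 smooth muscle and pericyte markers, held 509 CPM, above the endothelium-like cells of that library. Of the stroma-like clusters there, the other 3 held 47.6 to 56.5 CPM.

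Col4a2 was 18.7 CPM in Induced D6, against 29.6, 29.3, 34.9, 41.2 and 42.5 CPM in the embryo libraries. Col4a5, a chain of specialised basement membranes such as that of the kidney glomerulus, was 21.8 CPM in Induced D6, against 3.82, 11.1, 9.13, 11.8 and 16.6 CPM in the embryo libraries. In gonadal-epithelium-like cells Col4a5 was 14.3 CPM in Induced D6, against 8.97, 10.7, 11.3, 21.9 and 27.9 CPM in the embryo libraries. In stroma-like cells it was 44.1 CPM in Induced D6, against 1.12, 21.3, 20.9, 13.2 and 14.8 CPM in the embryo libraries. Epithelial Col4a5 was thus highest at E14.5 and stromal Col4a5 in Induced D6. Col4a3, Col4a4 and Col4a6 were at most 3.14 CPM in any whole library.

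Over whole libraries the main type VI genes, Col6a1, Col6a2 and Col6a3, were highest in Induced D6 and lowest at E10.5. Col6a1, Col6a2 and Col6a3 chains join into one trimer, and mutations in the human genes cause muscle disease. Col6a1 (ENSMUSG00000001119, chr10:76708792-76726168, minus strand) was 118 CPM in Induced D6, against 1.69, 15.8, 14.1, 23.4 and 44.1 CPM in the embryo libraries. Col6a2 was 107 CPM in Induced D6, against 1.83, 14.7, 14.9, 27.9 and 57.8 CPM in the embryo libraries. Col6a3 was 20.5 CPM in Induced D6, against 0.866, 7.14, 4.24, 7.05 and 16.7 CPM in the embryo libraries. The 3 genes were lowest at E10.5 and highest in Induced D6. At E14.5 the ratios over E10.5 were 26.2 (20.6 to 33.6) for Col6a1, 31.7 (25.2 to 40.2) for Col6a2 and 19.2 (13.8 to 27.6) for Col6a3.

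In stroma-like cells Col6a1 was 272 CPM in Induced D6, against 3.37, 49.97, 45.4, 86.5 and 129 CPM in the embryo libraries. In gonadal-epithelium-like cells it was 67.98 CPM in Induced D6, against 1.68, 8.73, 14.02, 27.8 and 36.2 CPM in the embryo libraries. The thinned share of stroma-like cells with a Col6a1 UMI was 52.8% in Induced D6, against 0.755%, 14.8%, 13.8%, 22.1% and 31.1% in the embryo libraries, and it was 2.94% in erythroid-like cells of E14.5. Among E10.5 classes of 50 cells or more, the highest Col6a1 level was 10.3 CPM, in skeletal-muscle-like cells. Col6a3 was mainly a stromal gene, at 87.4 CPM in stroma-like and 2.14 CPM in gonadal-epithelium-like cells of Induced D6. At E14.5 the same classes held 67.9 and 5.75 CPM of Col6a3.

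**Figure D3:**
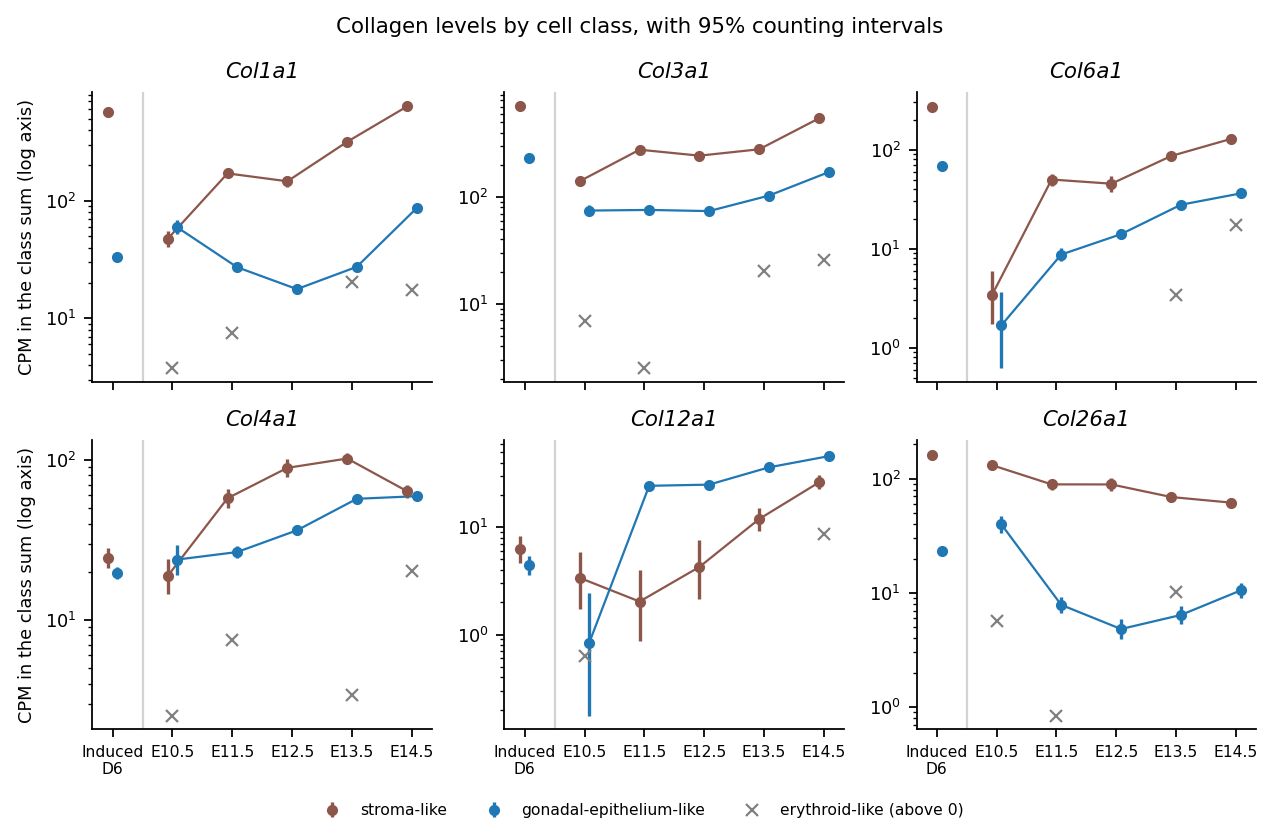
Level (CPM, log axis) of 6 collagens in the stroma-like (brown) and gonadal-epithelium-like (blue) classes of Induced D6 and of the embryo libraries, with 95% counting intervals. Grey crosses are erythroid-like cells where they held a UMI. Stroma-like Col6a1 is 272 CPM in Induced D6 and 129 CPM at E14.5, and Col12a1 is higher in the gonadal-epithelium-like class at each stage from E11.5 on.

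Col12a1, a FACIT collagen that lies along type I fibrils, was 4.11 CPM in Induced D6, against 2.88, 14.1, 14.51, 18.6 and 27.96 CPM in the embryo libraries. Supporting-lineage-like cells held 10.9 CPM in Induced D6, against 42.4, 41.6, 44.3 and 46.9 CPM in the libraries of E11.5 and later. Coelomic-epithelium-like cells held 0.415 CPM in Induced D6, against 0.841, 3.40, 2.35, 12.9 and 44.6 CPM in the embryo libraries. Col12a1 was therefore level across stages in the supporting lineage and highest at E14.5 in the coelomic epithelium. Stroma-like cells held 6.30 CPM in Induced D6, against 3.37, 2.03, 4.26, 11.9 and 26.2 CPM in the embryo libraries. Erythroid-like cells of E14.5 held 8.64 CPM, and the part of free RNA in these levels was not tested.

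Col14a1, another FACIT gene, was 48.6 CPM in Induced D6, against 2.81, 42.6, 16.3, 14.2 and 16.9 CPM in the embryo libraries among stroma-like cells. It was at most 1.65 CPM in the gonadal-epithelium-like class. Col9a2, which normally pairs with Col9a1, was 13.3 CPM in Induced D6 and 2.53 to 8.32 CPM in the embryo libraries. Col16a1, found at the surface of fibrils, was 8.95 CPM in Induced D6 and 0.632 to 11.6 CPM in the embryo libraries. Col19a1, a FACIT collagen of muscle, was 24.3 CPM in skeletal-muscle-like cells of E10.5 and had 0 UMIs in Induced D6, which allows 0.0652 CPM there. Col9a3 was 13.6 CPM in neural-crest- and sympathoblast-like cells of E10.5. Of the hexagonal network genes, Col8a1 was 17.01 CPM in a splanchnic-mesoderm-like cluster of E10.5. Col8a2 was 31.4 CPM in a coelomic-epithelium-like cluster of E14.5.

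Col18a1, a heparan sulfate multiplexin of basement membranes whose terminal piece is endostatin, was 41.2 CPM in Induced D6, against 41.9, 35.2, 46.3, 47.7 and 29.05 CPM in the embryo libraries. Gonadal-epithelium-like cells held 57.9 CPM in Induced D6, against 51.3, 27.2, 35.3, 44.1 and 36.7 CPM in the embryo libraries. Stroma-like cells held 4.16 CPM in Induced D6, against 13.49, 7.36, 10.9, 8.20 and 6.73 CPM in the embryo libraries. It was therefore an epithelial rather than a stromal transcript in each library. Endothelium-like cells held 195, 324, 303, 215 and 166 CPM of Col18a1 in the embryo libraries. Germ-cell-like cells held 55.1, 46.4, 54.9, 42.9 and 14.4 CPM, the first of these values from 18 cells. The other multiplexin, Col15a1, was 71.03, 129.7, 81.7, 107 and 68.4 CPM in endothelium-like cells and at most 8.18 CPM in the stroma-like and gonadal-epithelium-like classes.

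Col26a1, a little-studied collagen known from testis and ovary, was 53.9 CPM in Induced D6, against 64.6, 23.6, 13.03, 11.1 and 17.4 CPM in the embryo libraries. In stroma-like cells it was 160.2 CPM in Induced D6, against 132, 89.3, 89.2, 69.1 and 61.8 CPM in the embryo libraries. In gonadal-epithelium-like cells it was 23.2 CPM in Induced D6, against 39.8, 7.84, 4.82, 6.40 and 10.502 CPM in the embryo libraries. Among the stroma-like classes Col26a1 was thus highest in Induced D6 and lowest at E14.5. Col13a1, a transmembrane collagen of cell adhesion sites, was 17.5 CPM in Induced D6 and 2.58 to 5.24 CPM in the embryo libraries. The transmembrane Col23a1 and Col25a1 were 7.85 and 2.37 CPM in Induced D6, against 17.6 and 10.96 CPM at E10.5, their highest library. Col17a1, a transmembrane collagen of the epidermal anchor, was at most 0.329 CPM in any whole library, and it passed 10 CPM only in shallow unnamed clusters on 1 UMI each.

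The change over ovary formation was read from E14.5 over E11.5. In the gonadal-epithelium-like class, 10 of 16 collagens tested were at least 2-fold higher at E14.5 and 0 were lower, against 7.67% and 13.46% of 8578 genes. The median log2 ratio was 1.17 for the collagens and −0.15 over all genes. The ratio was 5.31 (4.45 to 6.38) for Col6a2, 4.15 (3.51 to 4.92) for Col6a1, 3.18 (2.51 to 4.06) for Col16a1 and 3.18 (2.88 to 3.51) for Col1a1. Of the basement membrane genes, Col4a5 was at 2.61 (2.22 to 3.08), Col4a1 at 2.23 (2.01 to 2.49) and Col4a2 at 2.22 (1.95 to 2.52). The rest of the 10 were Col27a1 at 2.56, Col3a1 at 2.26 and Col5a2 at 2.26. With 1000 genes or more per cell, Col1a1, Col3a1 and Col5a2 were under 2-fold, at log2 ratios of 0.84, 0.98 and 0.89. At Leiden resolution 0.5 the same genes were at 0.91, 0.98 and 0.93. With at most 5% mitochondrial UMIs, Col4a1 was under 2-fold, at 0.99.

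The 2 kinds of epithelium were also read apart. In coelomic-epithelium-like clusters alone, 13 of 16 collagens were at least 2-fold higher at E14.5. In supporting-lineage-like clusters alone it was 5 of 12, namely Col3a1, Col4a1, Col4a2, Col4a5 and Col5a2. The share over all genes was not computed for either kind alone, so these counts are given as values only. There the log2 ratios of Col6a1, Col6a2 and Col1a1 were 0.76, 0.71 and 0.45, against 3.32, 3.50 and 1.75 in coelomic-epithelium-like clusters. The difference between the 2 kinds was not tested. The erythroid-like level was also higher at E14.5, with 216 CPM of all collagens, against 46.4 CPM at E11.5. Endothelium-like cells held 109 CPM of Col1a1 at E14.5 and 0 CPM at E11.5, where a count of 0 allows 2.65 CPM. Erythroid-like cells of E11.5 held 9 Col1a1 UMIs, so these classes did not show the same level there. The part of free RNA in the result was not tested.

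In the stroma-like class, 10 of 22 collagens were at least 2-fold higher at E14.5 than at E11.5 and 1 was lower, against 5.11% and 16.4% of 8414 genes. The median log2 ratio was 0.95 for the collagens and −0.34 over all genes. Among fibrillar genes, Col1a1 was at 3.71 (3.42 to 4.03), Col27a1 at 2.98 (2.18 to 4.16) and Col5a2 at 2.04 (1.70 to 2.46). Col5a2 lies just inside the 2-fold threshold and Col3a1, at 1.97 (1.84 to 2.11), just outside. Of type VI, Col6a2 was at 3.50 (3.02 to 4.06) and Col6a1 at 2.58 (2.20 to 3.02), while Col6a3, at 1.83 (1.52 to 2.22), was under 2-fold. Col12a1, Col9a2, Col8a2 and Col25a1 had ratios of 12.9, 10.02, 6.41 and 5.64, but rested on 8, 6, 8 and 14 UMIs at E11.5. Col16a1 was at 2.95 (1.98 to 4.52). Col14a1 was 2.52-fold lower (1.98 to 3.23), but under 2-fold at Leiden resolution 2 (log2 ratio −0.65). The type IV ratios in stroma-like cells were 1.11 (0.939 to 1.31) for Col4a1, 1.12 (0.922 to 1.36) for Col4a2 and 0.695 (0.514 to 0.941) for Col4a5, all under 2-fold.

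**Figure D4:**
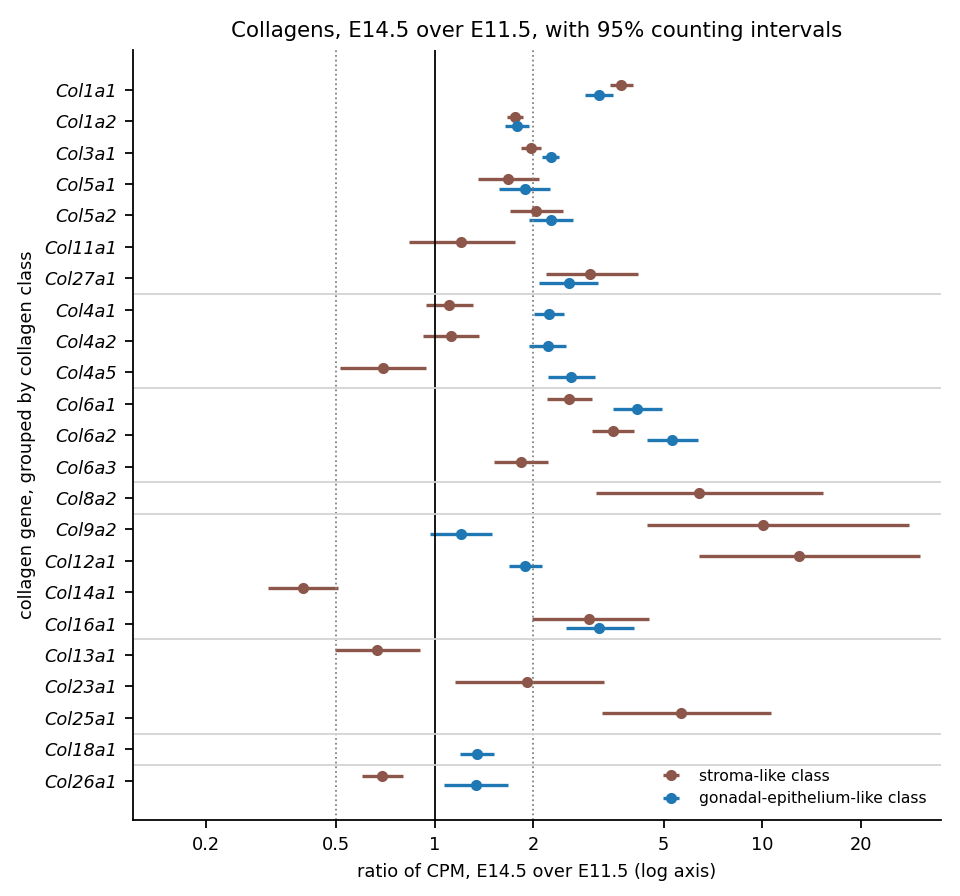
Ratio of CPM at E14.5 over E11.5 (log axis) for each collagen tested in the stroma-like (brown) or gonadal-epithelium-like (blue) class, with 95% counting intervals. Dotted lines mark 2-fold. Col6a1 and Col6a2 lie beyond 2-fold in both classes, Col4a1 does so in the gonadal-epithelium-like class (2.23), and stroma-like Col14a1 lies at 0.396.

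The cultured cells were set beside the E12.5 ovary. In the gonadal-epithelium-like class, 5 of 15 collagens were at least 2-fold higher in Induced D6 and 1 was lower, against 12.1% and 4.27% of 8436 genes. The median log2 ratio was 0.75 for the collagens and 0.25 over all genes. With coelomic-epithelium-like clusters alone 6 of 14 were higher, and with supporting-lineage-like clusters alone 7 of 15. For these splits no share over all genes was computed, so the counts are given as values only. The ratio was 4.85 (4.28 to 5.51) for Col6a1, 4.81 (3.89 to 6.01) for Col26a1 and 4.10 (3.57 to 4.72) for Col6a2. Col3a1 was at 3.13 (2.96 to 3.32) and Col1a2 at 2.54 (2.34 to 2.75). Col1a2 had a log2 ratio of 0.83 in coelomic-epithelium-like clusters alone, under 2-fold. Col12a1 was 5.65-fold lower (4.57 to 7.05). Against E13.5 in place of E12.5 the log2 ratio of Col6a2 was 0.90. In supporting-lineage-like cells Col12a1 was 10.9 CPM in Induced D6 and 41.6 CPM at E12.5. Induced D6 had no erythroid-like class, so its level of free RNA could not be read. The erythroid-like collagen level at E12.5 was the lowest of the embryo libraries, but it rests on 23 cells with 313751 UMIs. The part of free RNA in the differences between Induced D6 and E12.5, in either class, was not tested.

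In the stroma-like class, 11 of 21 collagens were at least 2-fold higher in Induced D6 than at E12.5 and 3 were lower, against 15.2% and 5.06% of 8659 genes. The median log2 ratio was 1.07 for the collagens and 0.22 over all genes. Type VI collagen was higher, with Col6a1 at 5.99 (4.97 to 7.28), Col6a2 at 4.86 (4.15 to 5.74) and Col6a3 at 3.09 (2.42 to 3.99). Of the fibrillar genes, Col1a1 was at 3.84 (3.46 to 4.28), Col3a1 at 2.91 (2.68 to 3.16) and Col11a1 at 2.18 (1.43 to 3.47). The others were Col8a2, Col14a1, Col9a2, Col13a1 and Col4a5, at 3.45, 2.99, 2.58, 2.46 and 2.11. Type IV genes differed among themselves: beside the higher Col4a5, Col4a1 was 3.65-fold lower (3.002 to 4.44) and Col4a2 2.63-fold lower (2.11 to 3.27). The multiplexin Col18a1 was 2.61-fold lower (1.52 to 4.46).

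Some of these differences depended on the cells or stage compared. With the unnamed clusters nearest to stroma joined to the class, the log2 ratio of Col18a1 was −0.03, and those of Col4a5, Col11a1 and Col14a1 were 0.90, 0.61 and 0.71. Set against E13.5 in place of E12.5, Col1a1, Col6a3 and Col8a2 were at 0.83, 0.80 and 0.71. There Col18a1 was at −0.98. Set against E11.5, Col4a2, Col18a1, Col14a1, Col13a1 and Col11a1 were at −0.80, −0.82, 0.19, 0.83 and 0.89. The stroma-like ratios of Col6a1, Col6a2 and Col3a1 stayed above 2-fold, and that of Col4a1 beyond 2-fold lower, under each alternative run.

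**Figure D5:**
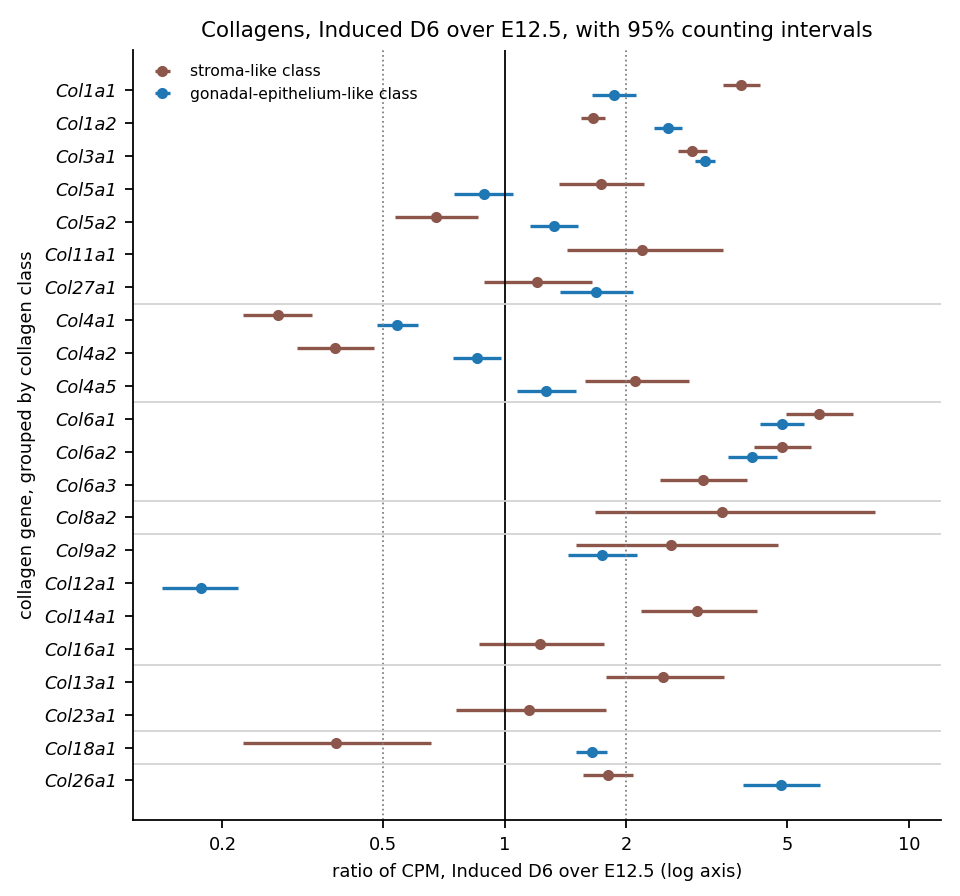
Ratio of CPM in Induced D6 over E12.5 (log axis) for each collagen tested in the stroma-like (brown) or gonadal-epithelium-like (blue) class, with 95% counting intervals. Dotted lines mark 2-fold. Col6a1 lies at 5.99 and 4.85, Col4a1 lies at 0.274 in the stroma-like class, and Col12a1 at 0.177 in the gonadal-epithelium-like class.

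Chains that assemble together were compared as ratios of their UMIs, which describe RNA and not protein. The ratio of Col1a1 to Col1a2 in stroma-like cells was 0.908 (0.872 to 0.946) in Induced D6, against 0.389, 0.455, 0.390, 0.662 and 0.961 in the embryo libraries. In gonadal-epithelium-like cells it was 0.344 (0.316 to 0.373) in Induced D6, against 1.02, 0.594, 0.468, 0.631 and 1.06. Induced D6 stroma-like cells were thus nearest to E14.5, and the Induced D6 epithelium class lay below each embryo stage. By kind, coelomic-epithelium-like cells were at 0.328 in Induced D6, against 1.02, 0.646, 0.477, 0.808 and 1.17, and supporting-lineage-like cells at 0.526 in Induced D6, against 0.365, 0.382, 0.364 and 0.368 from E11.5 on.

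Over whole libraries the ratio of Col4a1 to Col4a2 was 1.05 (0.954 to 1.15) in Induced D6, against 1.49, 1.54, 1.67, 1.63 and 1.39 in the embryo libraries. The ratio of Col6a1 to Col6a2 was 1.11 (1.06 to 1.15) in Induced D6, against 0.923, 1.07, 0.948, 0.837 and 0.763. In stroma-like cells the ratio of Col6a3 to Col6a1 was 0.322 (0.295 to 0.350) in Induced D6, against 0.741, 0.624, 0.582 and 0.527 in the libraries of E11.5 and later. Among these stroma-like classes the third type VI chain was thus proportionally lowest in culture. In supporting-lineage-like cells the ratio was 0.0355 in Induced D6, against 0.0451, 0.0279, 0.0641 and 0.0510 in the libraries of E11.5 and later. Over whole libraries the ratio of Col9a1 to Col9a2 was 0.0131 in Induced D6, against 14.8, 0.140, 0.285, 0.261 and 0.0309 in the embryo libraries. These values depend on cell mix. Germ-cell-like cells held 32 of 37, 72 of 73 and 81 of 85 Col9a1 UMIs at E11.5, E12.5 and E13.5. Induced D6 had no cluster named germ cell or pluripotent stem cell. In gonadal-epithelium-like cells the ratio was 0.0107, 0.0135 and 0.00633 at E11.5, E13.5 and E14.5, on 2, 3 and 1 Col9a1 UMIs.

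Genes that handle collagen were read from 5 lists. Their counts are read against the shares over all genes tested. For Induced D6 over E12.5 these were 12.1% higher and 4.27% lower in the gonadal-epithelium-like class, and 15.2% and 5.06% in the stroma-like class. For E14.5 over E11.5 they were 7.67% and 13.46% in the gonadal-epithelium-like class, and 5.11% and 16.4% in the stroma-like class. A count of 1 gene from a list this short is given as a value only. Of 19 genes for folding and modification, 6 of 16 tested in the gonadal-epithelium-like class were at least 2-fold higher in Induced D6 than at E12.5 and 0 were lower. P4ha2, a prolyl hydroxylase subunit, was 116 CPM in Induced D6 and 7.20 CPM at E12.5, a ratio of 16.1 (13.6 to 19.1). The lysyl hydroxylase Plod2 was at 3.33 (2.88 to 3.86). Among stroma-like cells 7 of 18 were higher and 1 was lower, with P4ha2 at 9.98 (6.25 to 16.96) and P4ha1 at 4.05 (3.21 to 5.15), and P4ha3 4.90-fold lower (2.79 to 8.76). Between E14.5 and E11.5, 0 of 16 were higher in the gonadal-epithelium-like class and 4 lower: P4ha2 by 3.22-fold, P3h1 by 2.27-fold, P4ha1 by 2.23-fold and Plod2 by 2.06-fold. The other 12 were under 2-fold. Among stroma-like cells 1 of 18 was higher, P3h2, a share close to the 5.11% of all genes, and 0 were lower.

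Of 13 genes for propeptide processing and cross-linking, 3 of 5 were higher in the gonadal-epithelium-like class of Induced D6 than at E12.5, led by the lysyl oxidase relative Loxl1 at 7.33 (6.09 to 8.90). Stroma-like cells had 2 of 7 higher, Lox at 3.75 (1.90 to 8.44) and Loxl1 at 2.01 (1.68 to 2.42). Neither class had a lower one. At E14.5 3 of 7 were higher than at E11.5 in the stroma-like class, among them the lysyl oxidase Lox at 5.31 (2.92 to 10.6) and the procollagen N-proteinase Adamts2 at 5.23 (3.78 to 7.42), and Loxl3 was 2.02-fold lower (1.35 to 3.04). In the gonadal-epithelium-like class 0 of 4 were higher and 0 lower.

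Of 9 fibril-associated proteoglycans and regulators, 2 of 4 were higher in the stroma-like class of Induced D6 than at E12.5: Lum at 12.46 (9.84 to 16.00) and Dcn at 8.19 (7.36 to 9.14), both small proteoglycans that bind fibrils. In the gonadal-epithelium-like class 3 of 4 were higher, with Dcn at 2.81 (2.58 to 3.06). At E14.5 3 of 5 were higher than at E11.5 in the gonadal-epithelium-like class, with the matricellular genes Thbs2 at 37.9 (26.2 to 56.9) and Thbs1 at 29.1 (19.5 to 45.5). In the stroma-like class 1 of 5 was higher, Thbs1, and the collagen-binding Sparc was 2.14-fold lower (2.07 to 2.21).

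Of 10 collagen receptors, 2 of 3 were higher in the gonadal-epithelium-like class and 2 of 4 in the stroma-like class of Induced D6 than at E12.5. The receptor kinase Ddr1 was at 2.80 (2.48 to 3.17) and 2.20 (1.49 to 3.34). At E14.5 0 of 2 and 1 of 5 were higher than at E11.5, with the collagen-binding integrin Itga11 at 3.64 (1.91 to 7.64) in stroma-like cells. Of 12 genes of collagen breakdown and its inhibitors, 4 of 7 were higher in the gonadal-epithelium-like class of Induced D6 than at E12.5. Stroma-like cells had 4 of 9 higher and 1, Timp1, was 2.57-fold lower (2.19 to 3.01). The gelatinase Mmp2 was at 6.26 (5.62 to 6.99) and 3.52 (3.09 to 4.01). Ctsk, a collagen-cleaving protease, was at least 14.9-fold higher in stroma-like cells, against a floor of 3 UMIs over the E12.5 class. At E14.5 1 of 7 and 1 of 8 were higher than at E11.5, with Timp3, a metalloproteinase inhibitor, at 2.49 (2.33 to 2.65) in the gonadal-epithelium-like class.

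The remaining 13 collagens stayed under 10 CPM in each library and class. Col10a1, of hypertrophic cartilage, had 0 UMIs in all 6 libraries, and a count of 0 allows 0.0652 CPM in Induced D6. Col28a1 had 3 UMIs in Induced D6, against 1, 2, 0, 0 and 0 in the embryo libraries. Col6a6 had 165 UMIs in Induced D6, against 0, 31, 27, 47 and 64 in the embryo libraries, and its relative Col6a5 had 17 UMIs in Induced D6, against 1, 18, 31, 77 and 70 in the embryo libraries. Col4a4, of the glomerular basement membrane, had 37 UMIs in Induced D6, against 14, 16, 10, 48 and 71 in the embryo libraries. Col22a1, a collagen of tissue junctions, had 28 UMIs in Induced D6, against 54, 35, 58, 130 and 74 in the embryo libraries. Col4a3, Col4a6, Col6a4, Col7a1, Col11a2, Col20a1 and Col24a1 had 1 to 110 UMIs per library.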

How the data were processed

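Single-cell 3′ libraries (Chromium v2, papain-dissociated cells, Illumina sequencing, per the labels' protocols) were counted by the authors with Cell Ranger 3.0.2 on mm10, per the submitters' processing notes. The deposited values are raw UMI counts per gene and barcode; the settings of its cell calling were not given in the sources used here. Each of the 6 groups is 1 library, grouped by its title.

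The cell filter was 500 or more genes and a mitochondrial UMI share up to 10% (scanpy 1.11.5), and the cells with the highest Scrublet scores were removed at 0.8% per 1000 cells, 59 to 452 per library, because the automatic threshold marked 0.0479% at E10.5. Each library was clustered alone on 2000 variable genes without collagens, 30 principal components, 15 neighbours and Leiden resolution 1. A cluster was named from 22 marker sets when at least 3 markers, and at least 1 in 3 of the set, were 1.5-fold over the other clusters and found in 10% of cells, and its leading genes did not favour another class. Filters and doublet removal can shift class sums.

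Counts were summed per class and scaled to CPM with exact Poisson intervals. Ratios have exact conditional binomial intervals and shares Clopper-Pearson intervals. A gene was tested with at least 10 CPM in either sum, and a difference is at least 2-fold. Zero counts were replaced by a floor of 3 counts in ratios. The ratio code was tested on simulated data. Alternatives changed filters, doublets, resolution, scaling, thresholds, class makeup and the embryo library compared. The members of each collagen class and pathway list with the largest ratios past 2-fold are named. Collagen members and all gene lists were chosen with earlier results of these data known.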

Additional observations from a re-analysis of the deposited data

Results flagged for a closer look

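Collagens were picked out here where the stroma-like and gonadal-epithelium-like ratios lay on opposite sides of 1 in the same comparison, with each interval clear of 1. In each case the difference between the classes was not tested, since each group is 1 library. For Col4a5, a basement membrane chain, E14.5 over E11.5 was 2.611 in the gonadal-epithelium-like class and 0.695 in the stroma-like class. For Col26a1 the same comparison gave 1.339 in the gonadal-epithelium-like class and 0.692 in the stroma-like class. For Col5a2, a minor fibrillar chain, Induced D6 over E12.5 was 1.322 in the gonadal-epithelium-like class and 0.677 in the stroma-like class. For Col18a1, the multiplexin, it was 1.639 in the gonadal-epithelium-like class and 0.383 in the stroma-like class. The stroma-like Col18a1 ratio was close to 1 once the unnamed clusters nearest to stroma were joined, with a log2 ratio of −0.03.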

How the results depend on the processing

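Of 489 ratios of collagens past 2-fold recomputed under the alternatives, 450 stayed past 2-fold in the same direction, 39 were under it and 0 reversed. Counts are given as higher and lower. For E14.5 over E11.5 in the gonadal-epithelium-like class (10 and 0), 3 were higher at 50 CPM or more, 23 and 3 differed with no filter, 2 were higher at 4-fold, and 5 in supporting-lineage-like clusters alone. In the stroma-like class (10 and 1) the counts were 4 and 0 at 50 CPM, 4 and 0 at 4-fold, 4 lower with no filter and 0 lower after centring on the median of all genes. Col5a2 there was under 2-fold in 6 alternatives. For Induced D6 over E12.5 in the gonadal-epithelium-like class (5 and 1), the counts were 3 and 0 at 50 CPM, 16 and 2 with no filter and 3 higher at 4-fold. There 2 were lower with at most 5% mitochondrial UMIs, 2 after centring and 2 against E13.5. In the stroma-like class (11 and 3) they were 5 higher at 50 CPM, 2 and 0 at 4-fold, 12 lower with no filter and 1 lower against E11.5. Whole libraries gave, for E14.5 over E10.5 (11 and 6), 4 and 1 at 50 CPM and 7 and 2 at 4-fold, and for Induced D6 over E12.5 (9 and 2), 1 lower at 50 CPM and 0 lower at 4-fold. The shares over all genes were not computed for these alternatives, so the counts are given as values only. A stricter filter or fold leaves fewer genes by construction, and dropping the filter lets more in. For the other changes the cause was not tested.

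At 2000 UMIs per cell, 48 of 60 shares lay outside their interval at 3000 UMIs, as fewer UMIs are drawn. Low UMI counts limit Col5a3, Col8a1, Col17a1, Col19a1 and the 13 genes under 10 CPM, and the erythroid-like background rests on 23 to 115 cells per library. No paired analysis was possible because each group has 1 library and no result comes from a test.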

Other observations

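Induced D6 held 5 clusters left unnamed, of 243, 809, 235, 222 and 857 cells, which are in the whole-library values above and in neither named class. Those of 243 and 235 cells held 5 of 14 coelomic epithelium markers, and that of 857 cells 5 of 14 supporting lineage markers. This met the minimum, but their leading genes favoured another class. The gonadal-epithelium-like ratios were not recomputed with them joined. Col6a1, a type VI chain, was 56.8, 215, 52.2, 184 and 56.1 CPM in these clusters, in the same order. Col3a1 was 239, 360.4, 227, 314 and 80.4 CPM and Col1a1 was 35.2, 250.01, 33.95, 43.05 and 5.63 CPM. Col4a1, of basement membranes, was 11.1, 20.6, 5.88, 23.1 and 12.2 CPM. Col18a1 was 56.3, 23.5, 46.4, 17.7 and 32.2 CPM and Col26a1 was 25.6, 71.9, 26.1, 52.3 and 34.96 CPM. The cluster of 809 cells had stroma as its best, though insufficient, marker match and was joined to that class in 1 alternative, and its Col6a1 level stands beside 272 CPM in the stroma-like class.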
